A study of Homo sapiens with 4 samples.

Results

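Chromatin accessibility was examined at 9 genes of the insulin-like growth factor (IGF) axis, namely the ligand gene IGF1, the receptor genes IGF1R and IGF2R, and the binding protein genes IGFBP1, IGFBP2, IGFBP3, IGFBP4, IGFBP5 and IGFBP6. The genes were chosen by name, with earlier results of these data known. For each the window was its gene body in GENCODE release 44 with 10 kb on either side. They are 9 of 20033 protein-coding genes, and their windows held 58 of the 80551 accessible regions that remained after the peaks of all libraries were merged.

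The data came from ATAC-seq, in which a transposase cuts and tags open chromatin for sequencing, done by the Omni protocol in HepG2, a human hepatocellular carcinoma line. All cells are labelled wild type, and one group was labelled untreated (control, 2 libraries, for which no vehicle is named, though the study used DMSO as the control in other HepG2 assays) and the other received 5 µM tazemetostat, an inhibitor of the histone methyltransferase EZH2, for 48 h (2 libraries). All cells were left to settle for 24 h beforehand and 50000 cells went into each library, while separate cultures behind the replicates are not named, so p-values measure only the spread between these libraries. EZH2 places the H3K27me3 mark of silenced genes as the enzyme of a polycomb complex, and the comparison asks where accessibility differs once it is inhibited.

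IGF-1 is made largely by the liver under the control of growth hormone and signals through IGF1R, a receptor tyrosine kinase. IGF2R, the cation-independent mannose 6-phosphate receptor, carries IGF-2 to lysosomes and has no kinase. The IGF binding proteins hold the ligands in blood and around cells, and IGFBP1 in the liver is the member that insulin represses, through insulin response elements bound by forkhead factors.

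Mapped tags, the aligned read ends counted by HOMER, were 17.2 M and 23.8 M for control replicates 1 and 2 and 19.8 M and 26.6 M for tazemetostat replicates 1 and 2, so depth overlapped between the groups. Counts of called peaks did not overlap, with 26133 and 34768 in the controls and 55313 and 54157 under tazemetostat, and the share of tags inside peaks was 4.32% and 5.69% in the controls against 11.5% and 9.81%. Of 12 liver markers, 8 had a promoter peak in every library, among them APOA1 and HNF4A, whereas ALB and FGB had one in none. Of 9 markers of other cells, 1 had a promoter peak in each control library, and 4 and 3 had one in tazemetostat replicates 1 and 2. LYZ had one in every library, ACTA2 in both tazemetostat libraries and COL1A2 in tazemetostat replicate 1, while PTPRC, CD3E, PECAM1, VWF and COL1A1 had none anywhere. The part of these series-wide differences in the results that follow was not tested. 

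The sequences of regions on which the results turn were read from hg38, plus strand, in lower case, with matches to the searched motifs in capitals. They are the part of the IGFBP1 promoter region before the first annotated base of the gene (chr7:45888117-45888359), 2 short sites of the same region, the region upstream of IGFBP1 with the highest tag counts of any member region (chr7:45885471-45885770), the region between IGFBP1 and IGFBP3 that was called only under tazemetostat (chr7:45902843-45903142), the IGFBP2 intron region (chr2:216636724-216637023, SP/KLF match GGGCGGGG), the IGFBP4 intron region (chr17:40448733-40449032) and the IGF1 intron region called only under tazemetostat (chr12:102441068-102441367, AP-1 match TGANTCA). The short sites are the insulin response element CAAAACA at chr7:45888361-45888385 and, on the minus strand, the HNF1 motif GTTAATNAT at chr7:45888410-45888436. Their matches begin 118 and 69 bases before the canonical start of IGFBP1, in a stretch annotated as the leader of a longer IGFBP1 transcript.
IGFBP1 promoter: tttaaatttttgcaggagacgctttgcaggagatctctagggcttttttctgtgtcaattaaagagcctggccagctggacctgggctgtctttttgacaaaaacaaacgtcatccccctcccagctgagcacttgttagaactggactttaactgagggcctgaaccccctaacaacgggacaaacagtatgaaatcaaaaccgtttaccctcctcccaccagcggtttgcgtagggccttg
IGFBP1 insulin response element: gtgcactagCAAAACAaacttattt
IGFBP1 HNF1 match: gcgctgccaATCATTAACctcctggtg
IGFBP1 upstream: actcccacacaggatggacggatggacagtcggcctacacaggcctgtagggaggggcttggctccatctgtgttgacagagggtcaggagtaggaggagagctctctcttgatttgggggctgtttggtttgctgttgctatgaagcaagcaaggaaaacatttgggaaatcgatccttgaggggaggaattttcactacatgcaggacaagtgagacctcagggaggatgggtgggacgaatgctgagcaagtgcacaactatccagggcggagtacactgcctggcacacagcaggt
IGFBP1 to IGFBP3: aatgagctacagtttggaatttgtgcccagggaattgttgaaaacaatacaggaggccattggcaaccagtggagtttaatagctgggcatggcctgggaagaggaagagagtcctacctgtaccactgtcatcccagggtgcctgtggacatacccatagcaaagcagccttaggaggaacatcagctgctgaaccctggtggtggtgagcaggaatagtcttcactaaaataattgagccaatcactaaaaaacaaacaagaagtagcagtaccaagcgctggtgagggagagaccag
IGFBP2 intron: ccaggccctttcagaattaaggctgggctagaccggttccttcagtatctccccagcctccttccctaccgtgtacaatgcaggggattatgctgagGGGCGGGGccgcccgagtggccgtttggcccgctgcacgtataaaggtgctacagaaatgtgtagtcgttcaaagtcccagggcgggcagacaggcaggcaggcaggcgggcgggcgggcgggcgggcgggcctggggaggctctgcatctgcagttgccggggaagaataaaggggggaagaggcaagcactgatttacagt
IGFBP4 intron: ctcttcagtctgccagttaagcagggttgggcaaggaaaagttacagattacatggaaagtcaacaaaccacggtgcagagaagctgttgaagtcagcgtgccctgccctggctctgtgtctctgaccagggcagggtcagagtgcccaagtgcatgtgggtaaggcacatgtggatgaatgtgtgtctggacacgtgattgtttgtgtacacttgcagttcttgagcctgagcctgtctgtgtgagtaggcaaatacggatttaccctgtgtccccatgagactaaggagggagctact
IGF1 intron: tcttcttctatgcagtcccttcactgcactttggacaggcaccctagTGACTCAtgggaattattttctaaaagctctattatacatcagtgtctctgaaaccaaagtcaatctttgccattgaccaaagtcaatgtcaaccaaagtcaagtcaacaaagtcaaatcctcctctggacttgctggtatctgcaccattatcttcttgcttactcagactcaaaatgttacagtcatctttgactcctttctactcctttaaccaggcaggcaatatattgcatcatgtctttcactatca

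To see how open the windows of the 9 genes were in each library, peaks were counted and their normalised tag counts summed. A normalised tag count is the number of tags in a peak per 10 M mapped tags. The windows of the controls held 16 and 28 peaks (replicates 1 and 2) and those of the tazemetostat libraries 41 and 40. Both tazemetostat libraries lay above both controls, at 40.5 ± 0.707 against 22 ± 8.49 peaks (mean ± SD, n = 2 each), a difference of 18.5 (exact permutation test, two-sided, p = 0.33, the smallest that 2 against 2 allows). When every library was cut to the 26133 peaks with the highest tag counts, the difference was -0.5 peaks, with means of 17 in the controls and 16.5 under tazemetostat.

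The summed normalised tag count was 243.2 and 388.7 in the controls and 785 and 623.1 under tazemetostat, again without overlap (316 ± 103 against 704.1 ± 115, n = 2, exact permutation p = 0.33). The length covered by peaks was 6084 and 11231 bp in the controls and 17862 and 16349 bp under tazemetostat, without overlap. Per kilobase of peak the values were 39.98 and 34.61 in the controls and 43.95 and 38.11 under tazemetostat, and the groups overlapped (difference 3.74, exact permutation p = 0.6667). Of all tags in peaks, the 9 windows took 0.0563% and 0.0683% in the controls against 0.0682% and 0.0635% under tazemetostat, which also overlapped. With 26133 peaks per library the sums still did not overlap, at 243.2 and 318.6 against 530 and 410.3 (difference 189.3, exact permutation p = 0.33). The values per kilobase of peak did not overlap either at that setting, at 40 and 38.7 against 54 and 53.2. The number of peaks was then level between the groups. However, the cut kept every peak of control replicate 1 and only the highest of the 55313 and 54157 tazemetostat peaks. It therefore selects high tag counts more strongly under tazemetostat, and these sums and densities cannot be told apart from that selection.

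Peaks were called in each library on its own, so a region without a peak carries no value there and is not a measured absence. By the libraries that called them, 6 of the 58 regions were tazemetostat-only, meaning called in both libraries of treated cells and in no control (10.3%, against 13.7% of all merged regions). None was control-only, a class that holds 0.449% of all regions. Peaks in every library were found at 7 regions (12.1%, against 20.4%). A further 16 regions had peaks in both tazemetostat libraries and 1 control (27.6%, against 13.2%), and in 13 of these the control was replicate 2. Peaks in both controls and 1 tazemetostat library were found at 0 regions (0.883% of all regions). The remaining regions were called in 1 library of each group (8, or 13.8%, against 5.12% of all regions), in 1 tazemetostat library (15, or 25.9%, against 33.6%) or in 1 control library (6, or 10.3%, against 12.6%). The 21 regions called in a single library were weak, with a median normalised tag count of 7.98 and a highest of 16.9.

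**Figure D1:**
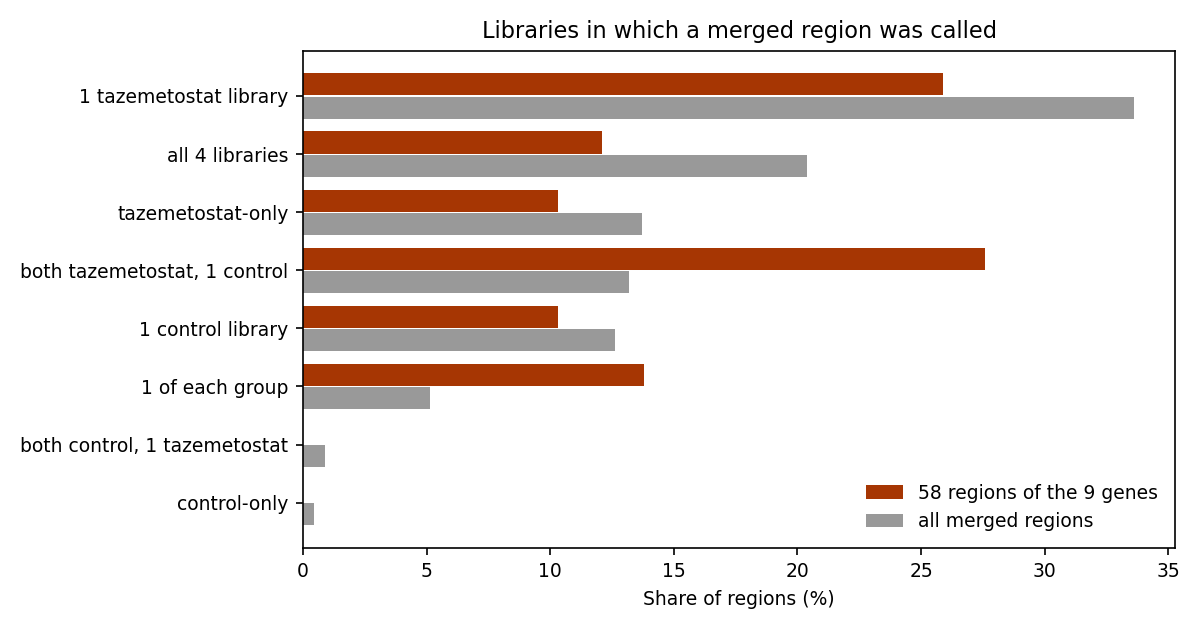
Horizontal bars give the share of regions (%) in each class of libraries with a peak, for the 58 regions of the 9 genes (brown) and for all merged regions (grey). Tazemetostat-only regions make up 10.3% and 13.7%, and the class with both tazemetostat libraries and 1 control makes up 27.6% and 13.2%.

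Tazemetostat-only regions lay in the windows of 5 of the 9 genes (55.6%, against 32.5% of all coding genes), namely IGF1, IGF1R, IGF2R, IGFBP1 and IGFBP3, where IGFBP1 and IGFBP3 share 1 region. No gene had a control-only region (1.35% of all coding genes). Window length differed widely, as IGF1R spans 316 kb and IGF2R 144 kb and together they held 41 of the 58 regions, whereas IGFBP6 spans 4.91 kb and held 1. All 6 tazemetostat-only regions were low, with normalised tag counts of 6.02 to 18.1, or 14 to 43 tags. Among them, only the IGF1 region exceeded a fold of 8 over its local background (the surrounding 10 kb) in both libraries.

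Most of the 59 gene and region pairs were intronic (42), and 5 were at promoters, taken as 1 kb upstream to 100 bp downstream of an annotated transcript start. A promoter peak was found at 2 of the 9 genes in control replicate 1 (22.2%, against 39.3% of all coding genes), at 3 in control replicate 2 (33.3%, against 46%), at 3 in tazemetostat replicate 1 (33.3%, against 58.3%) and at 4 in tazemetostat replicate 2 (44.4%, against 55.2%). These genes were IGF1R, IGF2R, IGFBP1 and IGFBP3. No promoter peak was called in any library at IGF1, IGFBP2, IGFBP4, IGFBP5 or IGFBP6.

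IGF1, the gene of the ligand, lies on chr12 (minus strand, chr12:102395874-102481744) and had 3 regions, none at a promoter. Its intronic region chr12:102440998-102441436, 39.3 kb into the gene, had no peak in either control and normalised tag counts of 11.6 and 9.03 in tazemetostat replicates 1 and 2, which corresponds to 23 and 24 tags. It is the IGF1 intron sequence printed above, with an AP-1 match, and its folds over the local background were 17.7 and 9.3. A second intronic region, chr12:102417034-102417499, had no peak in control replicate 1, 8.4 in control replicate 2, and 18.1 and 7.53 under tazemetostat, and the groups overlapped where it was called. This was the IGF1 region with the highest mean. The third region, beyond the 3′ end of the gene, was called in tazemetostat replicate 1 alone at 8.06. The controls thus called 0 and 1 peaks in the window and the tazemetostat libraries 3 and 2.

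IGF1R, the signalling receptor (plus strand, chr15:98648539-98964530), had 27 regions, most of them in introns. Without overlap, the controls called 6 and 13 peaks there and the tazemetostat libraries 18 and 22. Their normalised tag counts had medians of 10.2 and 9.24 in the controls and 12.6 and 9.41 under tazemetostat, and highest values of 12.8, 19.7, 46.4 and 34.6. At the canonical start, the region chr15:98648358-98648841, which also covers the promoter of the antisense gene IRAIN, had 10.5 in control replicate 1 and 18.6 in tazemetostat replicate 1, with no peak in either second replicate. The start was therefore called in 1 library of each group.

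The highest IGF1R region, chr15:98670850-98671654 at 22.7 kb, had no peak in control replicate 1, 19.7 in control replicate 2, and 46.4 and 34.6 under tazemetostat. Both tazemetostat values lay above the only control value, but the region could not enter the test for want of a value in control replicate 1. Another 3 regions were called in every library. At 79.2 kb (chr15:98727485-98728021) the values were 9.89 and 17.2 in the controls and 26.2 and 19.6 under tazemetostat. At 86.1 kb (chr15:98734407-98734867), the promoter of a shorter IGF1R transcript, they were 11.6 and 9.24 against 24.7 and 13.2. At 204 kb (chr15:98852205-98852761) they were 12.8 and 7.56 against 19.1 and 10.2. The groups did not overlap at the first 2 of these and overlapped at the last.

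Tazemetostat-only regions of IGF1R lay in introns at 131, 152 and 203 kb. The region at 131 kb (chr15:98779587-98779962) had 8.57 and 8.28, that at 152 kb (chr15:98800512-98800893) had 15.1 and 8.28, and that at 203 kb (chr15:98850941-98851333) had 14.1 and 10.2 in tazemetostat replicates 1 and 2. The last lies close to the 204 kb region that every library called. Of the other IGF1R regions, 9 had peaks in both tazemetostat libraries and 1 control, counting the one at 22.7 kb, 8 in 1 tazemetostat library, 2 in 1 control library and 1 at 89.4 kb in 1 library of each group.

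IGF2R, the scavenging receptor (plus strand, chr6:159969082-160113507), had 14 regions. The controls called 3 and 8 peaks and the tazemetostat libraries 8 and 9, so control replicate 2 matched tazemetostat replicate 1. The promoter region chr6:159968584-159969274 had no peak in control replicate 1, 14.3 in control replicate 2, and 19.7 and 17.3 under tazemetostat. Its central bases were the richest in G and C of all member regions, at 77.7%. The region in the first intron at 10.6 kb (chr6:159979203-159980064) was the highest of the gene, with 11.6 and 32.8 in the controls and 33.3 and 41.8 under tazemetostat. The groups did not overlap there, although control replicate 2 lay within 1 unit of tazemetostat replicate 1. The tazemetostat-only region covers an exon at 111 kb (chr6:160079467-160080099) and had 18.1 and 16.2, the highest of the 6 such regions.

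**Figure D2:**
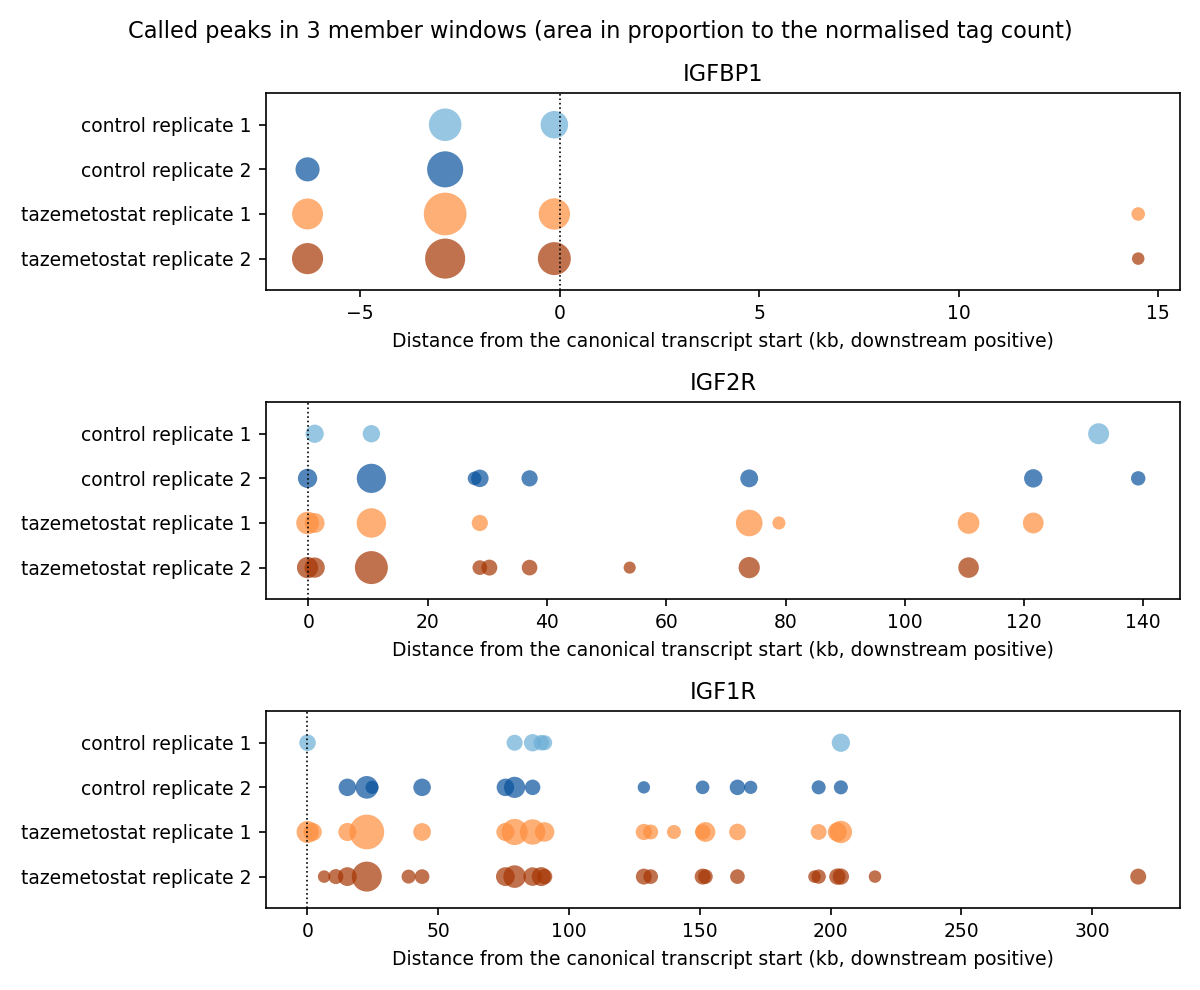
Each point is a called peak at its distance from the canonical transcript start (kb, horizontal axis) in 1 of the 4 libraries (rows), with area in proportion to the normalised tag count, for IGFBP1, IGF2R and IGF1R. Control replicate 1 has the fewest peaks at IGF2R (3) and IGF1R (6), and the peak at -2.87 kb of IGFBP1 is the largest in every library.

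IGFBP1, the insulin-repressed liver binding protein (plus strand, chr7:45888360-45893660), had the single region with the highest tag counts among the 9 genes, although the many regions of IGF1R summed to more in 3 of the 4 libraries. The upstream region at -2.87 kb (chr7:45885307-45885934) had normalised tag counts of 40.7 and 50 in the controls and 70 and 61.7 under tazemetostat. All 4 values were the highest of any member region in their library, and the groups did not overlap. With tazemetostat higher, that held at 81.6% of all regions with 1 peak in every library. A second upstream region at -6.32 kb (chr7:45881871-45882472), which held a CAAAACA match, had no peak in control replicate 1, 22.3 in control replicate 2, and 36.8 and 37.3 under tazemetostat. The promoter region (chr7:45888116-45888598), whose insulin response element and HNF1 matches are printed above, had 29.1 in control replicate 1, no peak in control replicate 2, and 37.8 and 41.8 under tazemetostat. Thus each control library called 2 of the 3 regions, and both tazemetostat libraries called all of them, with values above the control value at each. Of the 16 member regions with peaks in both tazemetostat libraries and 1 control, both tazemetostat values lay above the control at 12 and below it at 1. Whether the promoter was closed in control replicate 2 cannot be read from a missing peak, since control replicate 1 had 50 tags there at a fold of 5.39 over its surroundings, not far above the fold of 4 that the calling required.

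Downstream of IGFBP1, the region chr7:45902803-45903181 was tazemetostat-only, with 7.05 and 6.02 in tazemetostat replicates 1 and 2, or 14 and 16 tags. It lies 14.5 kb from the canonical start of IGFBP1 and 18.3 kb from that of IGFBP3, a gene on the opposite strand, and so falls in both windows. Its folds over the local background were 18.1 and 5.95. These were the lowest normalised tag counts of the tazemetostat-only regions.

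IGFBP3, the main carrier of IGFs in blood (minus strand, chr7:45912245-45921874), had 1 further region, at its promoter (chr7:45920831-45921228). It was called in control replicate 2 at 5.88 and in tazemetostat replicate 2 at 9.79, and in neither first replicate. These were 14 and 26 tags at folds of 4.23 and 4.04, just over the limit for calling.

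IGFBP2 (plus strand, chr2:216632828-216664436), a binding protein also made in the liver, had 4 regions. The intronic region at 3.45 kb (chr2:216636550-216637197) had 11.1 and 29.4 in the controls and 30.7 and 20.3 under tazemetostat, and the groups overlapped. A region over the first exon at 0.447 kb had 9.89 in control replicate 1 and 15.6 in tazemetostat replicate 1. The others, at 9.42 and 17.7 kb, lay between 7.56 and 11.6 where called. Tazemetostat replicate 1 had all 4 regions and tazemetostat replicate 2 had 1, fewer than the 2 of each control library.

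IGFBP4 (plus strand, chr17:40443450-40457725), a binding protein that restrains IGF signalling, had its main region in an intron at 5.43 kb (chr17:40448563-40449202). Normalised tag counts were 25.6 and 23.5 in the controls and 45.9 and 45.5 under tazemetostat, with replicates close together and groups apart. The called peak was also longer under tazemetostat, 627 and 624 bp against 459 and 398 bp. The folds over the local background were 4.87 and 4.99 in the controls and 4.38 and 4.53 under tazemetostat, and did not rise with the tag count. An upstream region at -9.48 kb was called in tazemetostat replicate 1 alone, at 13.6.

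IGFBP5 and IGFBP6, further members of the family, had 2 regions and 1 region. IGFBP5 (minus strand, chr2:216672105-216695549) had an intronic region at 12.1 in tazemetostat replicate 1 alone and an upstream region at 11.1 in control replicate 1 alone. IGFBP6 (plus strand, chr12:53097436-53102345) had a single region beyond its 3′ end (chr12:53103202-53103689), in the promoter of the neighbouring gene SOAT2, with 11.6 in control replicate 1 and 25.2 in tazemetostat replicate 1. Neither gene had a peak in either second replicate.

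**Figure D3:**
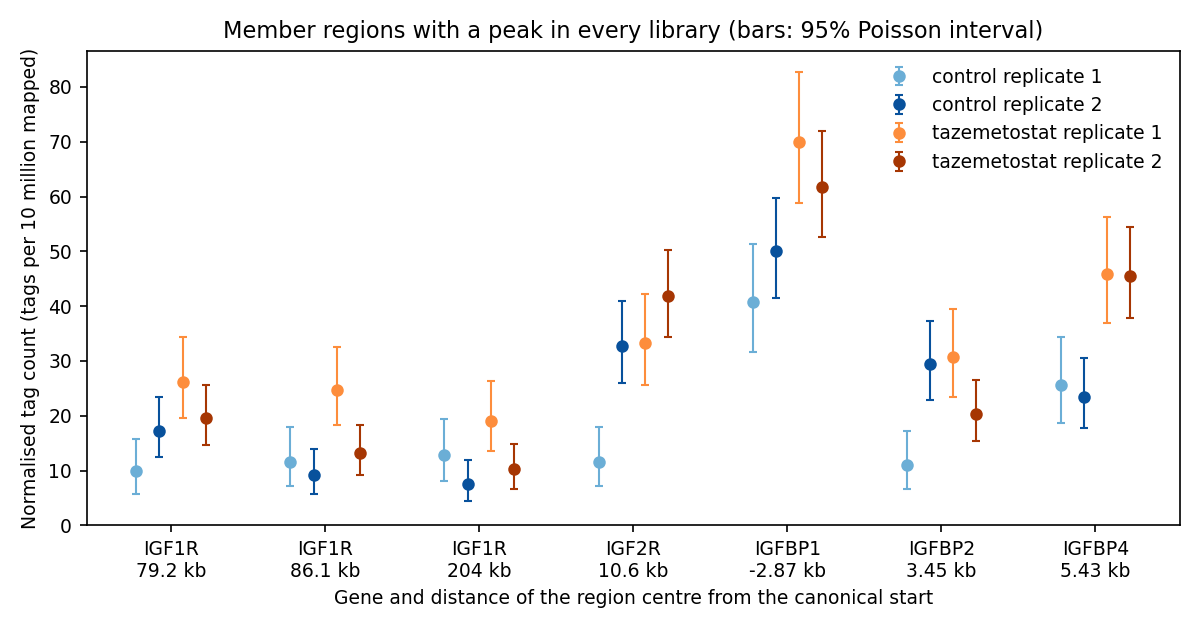
Points give the normalised tag count (tags per 10 M mapped) of each library at the 7 regions called in every library, with 95% Poisson intervals for counting error only. IGFBP1 is highest at 40.7 to 70, IGFBP4 separates 23.5 and 25.6 from 45.5 and 45.9, and the groups overlap at IGF1R 204 kb and at IGFBP2.

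Regions with 1 peak in every library allowed a test. limma was fitted to log2(normalised tag count + 1) over all 15383 such regions, of which 7 belonged to the 9 genes. Its SE and p-values are moderated. They draw on the spread of all tested regions and do not measure the spread of a region alone. The groups did not overlap, with tazemetostat higher, at 5 of the 7 regions, against 81.6% of all tested regions, and in the opposite direction at 0, against 1.75%. The IGFBP4 region passed the threshold, with a log2 change of 0.87 ± 0.29 (SE, n = 2 per group, adjusted p = 0.0276 in limma with Benjamini-Hochberg adjustment). It was the only one of the 7 (14.3%), where 42.7% of all tested regions were called higher and 0.247% lower. Without tazemetostat replicate 1 or 2 its log2 change was 0.87 and 0.88, and without control replicate 1 or 2 it was 0.93 and 0.81. With the deposited score taken for the tags in the 300 bp peak (added after seeing the data), the log2 change was 0.04 ± 0.27 (SE, limma adjusted p = 0.978). What this score counts where peaks were joined is not certain.

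The IGF2R region at 10.6 kb changed by 0.89 ± 0.37 (log2, SE, n = 2) and lay next to the threshold (limma adjusted p = 0.0529). Control replicate 1 was the low library here, and the log2 change was 1.60 without control replicate 2 and 0.18 without control replicate 1. Fits that leave 1 library in a group hold no spread within that group, so only their log2 changes are given, here and for IGFBP4. Log2 changes were 0.75 ± 0.32 for IGF1R at 79.2 kb and 0.75 ± 0.32 at 86.1 kb (limma adjusted p = 0.0592 and 0.0616, n = 2), and 0.47 ± 0.34 at 204 kb (limma adjusted p = 0.225). Without control replicate 2 the log2 changes at 79.2 and 86.1 kb were 1.12 and 0.60, and without control replicate 1 they were 0.38 and 0.90. With all libraries, the IGFBP1 region at -2.87 kb changed by 0.53 ± 0.30 (log2, limma adjusted p = 0.127). The IGFBP2 region changed by 0.44 ± 0.37 (limma adjusted p = 0.288), turning to -0.23 without control replicate 1 and to 1.10 without control replicate 2. With all libraries these 6 regions did not pass the threshold.

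All 7 regions had a higher mean under tazemetostat, as did 14678 of the 15383 tested, and the median of the 7 was 0.75 against 0.70 over all. Relative to that common shift, IGF2R stood at 0.19, IGFBP4 at 0.17, IGF1R at 0.05 for both 79.2 and 86.1 kb, IGFBP1 at -0.17, IGF1R at 204 kb at -0.24 and IGFBP2 at -0.26 (log2). Their changes ranked between the percentiles 22 and 72 of all tested regions. After each library was centred on its own median, limma called 0% of all regions higher and 0% lower, and 0 of the 7 (468 higher and 1188 lower had an unadjusted p under 0.05). With edgeR and TMM factors, which also scale the libraries to a common centre, 0.15% of all regions were higher and 1.13% lower, again with 0 of the 7. IGFBP4 then changed by 0.19 (adjusted p = 0.819 in edgeR). IGFBP1 stood at -0.18, IGF1R 204 kb at -0.19 and IGFBP2 at -0.43, below 0. With median centring the same 3 regions lay below 0, and IGF1R at 79.2 and 86.1 kb both stood at -0.01. Centring takes nearly the same amount from every region, so the values restate the rank of a region relative to the median. With median centring that median was -0.06, so IGF1R at 79.2 and 86.1 kb stayed above it despite their sign.

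**Figure D4:**
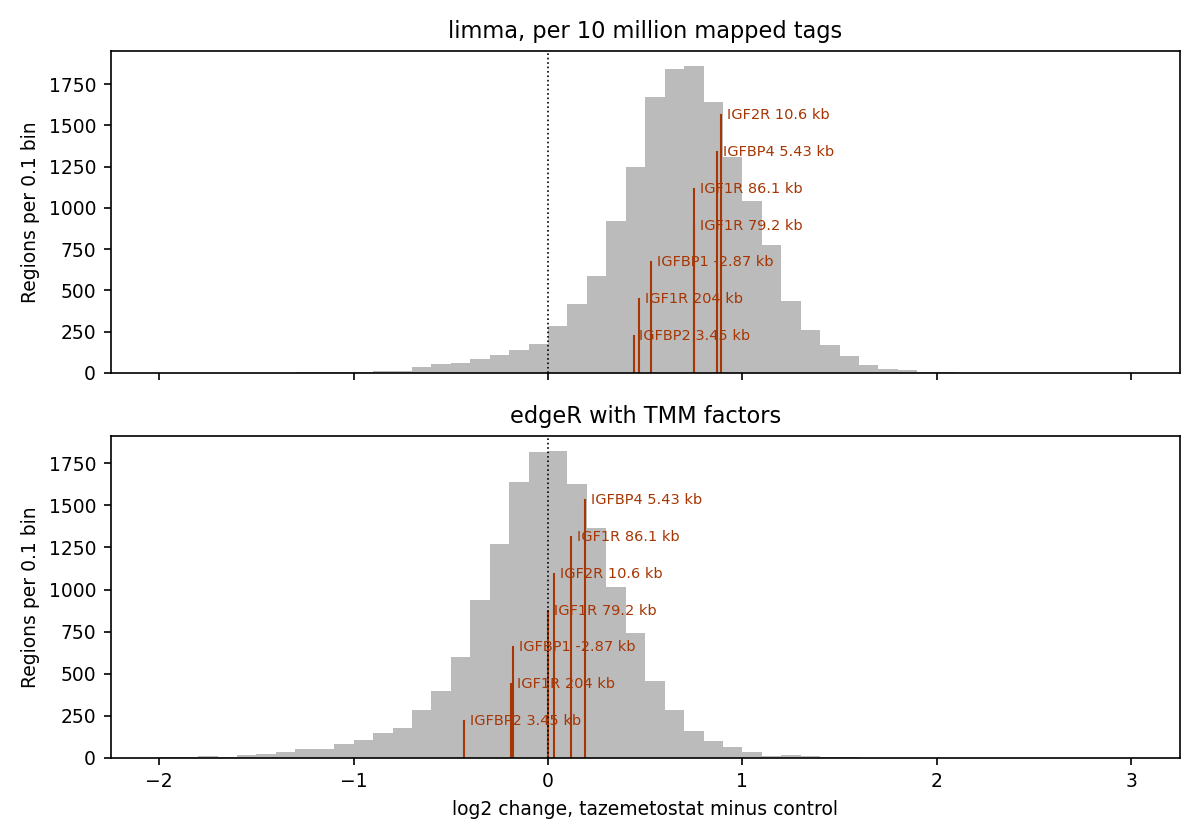
Grey bars count all 15383 tested regions by log2 change (tazemetostat minus control, bins of 0.1), and brown lines mark the 7 regions of IGF1R, IGF2R, IGFBP1, IGFBP2 and IGFBP4 with heights that only separate the labels. With limma per 10 M mapped tags (top) the median is 0.70 and the 7 lie between 0.44 and 0.89, and with edgeR and TMM factors (bottom) the median is 0.00 and they lie between -0.43 and 0.19.

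Peak length enters the tag count. Per kilobase of peak, the IGFBP1 region at -2.87 kb changed by 0.69 (log2, limma adjusted p = 0.0131), IGF1R at 79.2 kb by 0.62 (0.0238 in limma) and IGF1R at 86.1 kb by 0.67 (0.0153 in limma), all past the threshold. These are 3 of 7, where 32.9% of all tested regions were called higher and 0.26% lower. IGFBP4 changed by 0.34 and did not pass (limma adjusted p = 0.188). The SE was 0.22 at each of the 7 regions (n = 2 per group). These p-values therefore rank the regions by the size of the change and not by their own spread.

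Folds over the local background were low at the member regions and also over all peaks. Their median fold over the local background was 5.42 and 4.94 in the controls and 5.29 and 5.48 under tazemetostat, against 5.92, 5.65, 6.09 and 5.75 over all peaks of the same libraries. Under a fold of 5 lay 43.8% and 57.1% of the member peaks in control replicates 1 and 2, against 33.3% and 36.6% of all peaks. In tazemetostat replicates 1 and 2 they were 41.5% and 37.5%, against 31.3% and 35.1%. The calling required a fold of 4. The median G and C content of their central 300 bases was 50.5%, against 52.3% over 78220 regions on the primary chromosomes.

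Short motifs were searched on both strands of those 300 bases. CAAAACA, the core of the insulin response element, was in 9 of the 58 regions (15.5%, against 6.47% of all), among them the IGFBP1 promoter, the IGFBP1 region at -6.32 kb and the IGF1R region at 86.1 kb. GTAAACA, the forkhead motif, was in 5 (8.62%, against 8.24%), all of IGF1R. GTTAATNAT, for HNF1, was in 2 (3.45%, against 1.48%), the IGFBP1 promoter and IGF1R at 75.7 kb. The HNF4 spellings CAAAGTCCA and CAAAGTTCA were in 1 region each (1.72%, against 1.84% and 1.08%), at IGF1R and IGF2R. TGANTCA, for AP-1, was in 4 (6.9%, against 11.4%), GGGCGGGG, for SP/KLF factors, in 3 (5.17%, against 8.13%), the CTCF motif in 2 (3.45%, against 5.17%), TTGCGCAA, for CEBP, in 1 (1.72%, against 0.133%) and TGACGTCA, the cyclic AMP response element, in 0 (0.533% of all). CAAAACA and GTAAACA can overlap other forkhead sites, and a match is only a match of letters.

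For the rest of the pathway, 34 further genes of growth hormone, insulin and IGF signalling were examined by the same windows. They were listed with earlier results of these data known, so their shares are not an independent result. Of these 31 had a region, 182 in all, and 22 regions (12.1%, against 13.7% of all) in 14 genes (41.2%, against 32.5% of coding genes) were tazemetostat-only, with 0 control-only. Among 48 tested regions, limma called 30 higher (62.5%, against 42.7% of all) and 0 lower, in 19 of 24 genes, and the median log2 change was 0.83. The 30 became 0 with median centring, TMM factors or DESeq2 size factors. Per kilobase of peak, 13 of the 48 were higher, against 32.9% of all tested regions, so the larger share was not kept there.

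Among the leading genes by tag count were IGFALS, the third part of the circulating IGF complex, GRB2 and SHC1, adaptors of the receptor, MTOR, the growth kinase, PTPN1, a phosphatase of the insulin receptor, SOCS2, a brake on growth hormone signalling, IGF2BP1, an RNA-binding protein of IGF2 mRNA, GRB10, an adaptor that restrains the receptor, and PIK3R1, a regulatory subunit of PI3-kinase. Of the 30 called regions, those with the lowest limma adjusted p were 1 of GRB10 and 1 of PIK3R1, and these were picked here for that reason. The GRB10 intron region chr7:50614727-50615662 had 10.5 and 19.7 in the controls and 40.3 and 42.5 under tazemetostat, without overlap (log2 change 1.46 ± 0.32, limma adjusted p = 0.00722, n = 2). GRB10 also had 5 tazemetostat-only regions among its 22, where 13.7% of all merged regions were of that class. Their normalised tag counts were 8.06 to 19.7. At the PIK3R1 promoter (chr5:68215034-68216033) the values were 8.14 and 21.4 against 41.3 and 41.8 (1.57 ± 0.35, limma adjusted p = 0.00781).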

How the data were processed

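The 4 libraries were grouped by their titles, and the members and lists were chosen with earlier results of these data known. Per the labels and methods, the authors trimmed reads (Trim Galore 0.6.6), aligned them to hg38 (Bowtie2 2.3.5.1) and called peaks in each library with HOMER 4.11.1. Per the file headers, 300 bp peaks with a fold of at least 4 over 10 kb were stitched into regions, at an FDR of 0.001, whereas the methods give another. The fragment length was set to 200 in the controls and 144 under tazemetostat and cannot be told apart from the treatment. As deposited, the normalised tag count is a signal per 10 M mapped tags, and the deposited ratio is the fold over local background. The deposited score was taken for a tag count of the 300 bp peak, but its meaning after stitching is not certain. Region lengths were used as deposited, and the p-values in the files were not used.

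Peaks overlapping by at least 1 bp were merged. limma 3.58.1 (lmFit, eBayes, pseudocount 1, Benjamini-Hochberg adjustment, threshold 0.05) was the main test, with log2 changes that are understated where values are low, and edgeR 4.0.16 and DESeq2 1.42.0 (R 4.3.3) on tags recovered within 0.25 of whole numbers were alternatives. Library values were compared by the exact permutation test (scipy 1.17.1). The scripts were tested on simulated data. Named in full were promoter, tazemetostat-only, called and highest regions of each member, and at most 10 pathway genes by tag count; a few listed genes are not reported here. The authors compared groups from tag directories (not used here). Replicate numbers did not pair the libraries (correlation of replicate differences -0.002). Intervals cover counting error only.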

Additional observations from a re-analysis of the deposited data

How the results depend on the processing

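Depth limits what a missing peak means, the design has 2 libraries a group, and scaling decides the tag count calls; the cause of the changes was not tested. With a local fold of at least 8, 1 tazemetostat-only region in 1 gene was left. With 26133 peaks per library the difference in peaks was -0.5, that in summed tag counts 189.3, and 1 region in 1 gene was left. Gene bodies alone gave 3 genes and windows of 20 kb gave 10 regions. Counting a region called in at least 1 library of a group and none of the other gave 21 tazemetostat-only and 6 control-only regions and 8 genes. The classes joined in the 21 held 10.3% and 25.9% of member regions, against 13.7% and 33.6% of all. Those joined in the 6 held 0% and 10.3%, against 0.449% and 12.6% of all. For the other counts of regions and genes in this paragraph, the share over all is not given here. Leaving out 1 library gave 9 to 19 tazemetostat-only regions (19 without control replicate 2, 14 and 13 without tazemetostat replicates 1 and 2), 0 to 4 control-only regions (4 and 2 without control replicates 1 and 2) and 5 to 8 genes (8 without tazemetostat replicate 2).

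Of all tested regions, 6569 were higher and 38 lower in limma. The counts were 0 and 0 with median centring, 23 and 174 with TMM in edgeR, 3 and 106 in DESeq2, and 1366 and 6 with a local fold of 8. With the score taken for the tags of the fixed 300 bp peak, chosen after seeing the data, they were 0 and 0 (1271 and 213 at an unadjusted p under 0.05). With a mean tag count of at least 20, 23 were lower. Leaving out 1 library gave 0 to 8398 higher and 0 to 71 lower, 0 without either tazemetostat library (3238 and 5977 higher at an unadjusted p under 0.05). Of the 7 member regions, 0 were higher with median centring, TMM, DESeq2 or the 300 bp tags. Higher were 2 with edgeR on mapped tags (7455 of all) or a pseudocount of 5 (7515 of all). The filter of 20 gave 2 of the 4 it left (5337 of 9862 of all), and values per kilobase gave 3 (5063 of all). Of the 48 pathway regions, 0 were higher with median centring, TMM, DESeq2 or the 300 bp tags, 13 per kilobase, 5 of 7 with a local fold of 8, and 0 to 30 on leaving out 1 library.

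A replicate block, by numbers that did not pair the libraries, gave 2 member regions, IGF2R joining IGFBP4 (0.89, limma adjusted p = 0.0412). Of all regions, 5046 were higher and 27 lower. The SE was 0.35 at each member region tested, so these p-values rank regions by the size of the change and not by their own spread. Directions turned as follows (log2). With median centring, IGF1R stood at -0.01 at 79.2 kb and -0.01 at 86.1 kb, IGF1R 204 kb at -0.29, IGFBP1 at -0.23 and IGFBP2 at -0.32. TMM gave -0.19 for IGF1R 204 kb, -0.18 for IGFBP1 and -0.43 for IGFBP2, and DESeq2 gave -0.23, -0.18 and -0.39. IGF1R 204 kb was at -0.09 per kilobase and -0.34 with the 300 bp tags, and IGFBP2 at -0.23 without control replicate 1 (1.10 without control replicate 2). IGFBP4 lost its call in 7 of 15 alternatives, counting the fits without 1 library. Its changes went down to 0.11 ± 0.24 (SE) with median centring and 0.04 ± 0.27 with the 300 bp tags, both smaller than their errors.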
